A study of Mus musculus with 48 samples.

Results

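Cultured Setd1a-deleted neural stem cells that were given an LSD1 inhibitor (KO + ORY) were set against untreated wild-type cells (WT + DMSO) on day 7, across all expressed genes. The comparison rests on 8 libraries, 4 per group, of 48 in the series, and was taken from the day 7 count table by the group names alone. Libraries of total RNA were made by SMART-seq2, a full-length method that does not keep the strand, from neural stem cells of the dentate gyrus, the hippocampal niche in which neurons are born in adulthood. Mice of 7 to 8 weeks of age gave the cells, which all carried Hopx-CreERT2 (a tamoxifen-inducible Cre), Setd1a fl/fl and an H2B-GFP reporter at Rosa26. The medium of every group held BMP4 and FGF2, each at 20 ng/ml, to induce quiescence, and whether all cells stayed quiescent was not tested here. KO + ORY cells received a lentivirus for Cre-GFP and ORY-1001, and WT + DMSO cells received a lentivirus for GFP alone and the solvent DMSO. The other day 7 groups, KO + DMSO and WT + ORY, also with 4 libraries each, are given only to place this comparison. The compared groups differ in both genotype and inhibitor, so the parts of Cre, the vector, the H2B-GFP that Cre switches on, the deletion and the drug in any difference cannot be told apart within it. Cre came from a virus that does not reach every cell, so KO cultures also hold uninfected cells, and in bulk RNA fewer cells of a type and less RNA per cell cannot be told apart.

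SETD1A belongs to a complex that methylates histone H3 at lysine 4, a mark of active promoters and enhancers. LSD1, the product of Kdm1a, removes methyl groups from the same lysine, so inhibiting it can leave more of the mark in place, and ORY-1001 binds LSD1 covalently. Quiescent neural stem cells of the dentate gyrus share many transcripts with astrocytes, run on glycolysis, fatty acid oxidation and lysosomal turnover, and are kept out of the cell cycle by BMP signals. Against that background the question of the comparison is which genes of the treated KO cells lay near the WT level, which still lay apart, and which lay beyond it on the other side.

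Total counts ran from 5.32 to 9.94 M (counts in units of 10 to the power 6) in KO + ORY and from 5.05 to 20.6 M in WT + DMSO. Mitochondrial mRNAs took 6.12 to 6.60% of counts in KO + ORY and 5.92 to 6.61% in WT + DMSO, and ribosomal RNA-like transcripts 1.33 to 1.42% in KO + ORY and 1.44 to 1.55% in WT + DMSO. The study describes the libraries as independent cultures and the labels only number them, so the p-values measure the spread between numbered libraries. In both groups libraries 1 and 2, and libraries 3 and 4, lay closest together. Between these libraries the chi-square of the counts over its degrees of freedom was 2.69 and 2.84 in KO + ORY, where the other pairs gave 4.04 to 5.48. In WT + DMSO it was 3.89 and 2.98, where the other pairs gave 5.98 to 8.28. Summing them (2 libraries per group) therefore gives a stricter count, printed below as "summed libraries".

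KO + ORY and WT + DMSO differed in 1874 of 11952 genes tested (15.7%) at an adjusted p under 0.05 (edgeR's quasi-likelihood test with Benjamini-Hochberg adjustment), of which 990 (8.28%) were higher and 884 (7.4%) lower in KO + ORY. Most of these differences were small: 219 genes reached 2-fold, 592 reached 1.5-fold, and the median size over all genes tested was 0.19 on the log2 scale. Among the 1874 genes the groups did not overlap in 1559, where 19.4% of all genes tested had groups that did not overlap. Summed libraries gave 1040 genes, with 597 higher and 443 lower, and 405 genes passed when a change of more than 1.2-fold was required.

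The other comparisons of day 7 share libraries with this comparison or with each other, so their values are set side by side and not correlated. KO + DMSO differed from WT + DMSO in 4307 genes (36%), 2025 higher (16.9%) and 2282 lower (19.1%), with a median size of 0.29 on the log2 scale and 636 genes at 2-fold or more. WT + ORY differed from WT + DMSO in 1801 genes (15.1%), 8.16% higher and 6.91% lower, a number close to that of KO + ORY against the same controls. KO + ORY differed from KO + DMSO in 4622 genes (38.7%), 20.3% higher and 18.3% lower, and from WT + ORY in 138 genes (1.15%), 67 higher (0.561%) and 71 lower (0.594%). The last number was unsteady: it was 58 to 84 when a KO + ORY library was left out and 820 with the replicate number as a block.

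**Figure D1:**
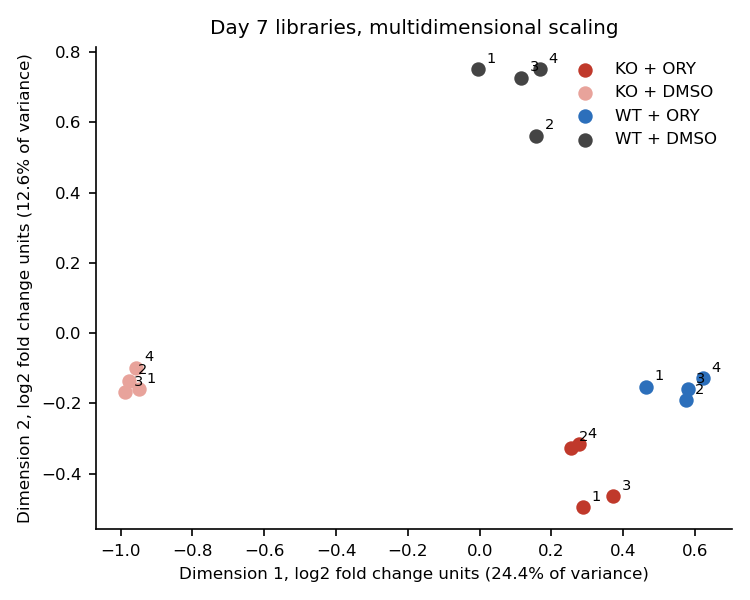
Multidimensional scaling of the 16 day 7 libraries on the 500 genes that differ most within each pair, with axes in log2 fold change units and library numbers beside the points. KO + DMSO stands apart on the first dimension (24.4% of the variance), at -0.99 to -0.95, and the second dimension (12.6%) separates KO + ORY, at -0.50 to -0.32, from WT + DMSO, at 0.56 to 0.75.

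Over all genes the treated KO libraries lay nearer to WT + DMSO by their median distance than the untreated KO libraries did, and that distance overlapped the spread within WT + DMSO. The root mean square log2 difference between a KO + ORY and a WT + DMSO library had a median of 0.524 (0.442 to 0.594 over 16 pairs), against 0.634 (0.582 to 0.674) between KO + DMSO and WT + DMSO. Within groups it had a median of 0.432 (0.331 to 0.461 over 6 pairs) in KO + ORY and 0.415 (0.371 to 0.524 over 6 pairs) in WT + DMSO. WT + ORY lay 0.518 from WT + DMSO and 0.462 from KO + ORY.

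**Figure D2:**
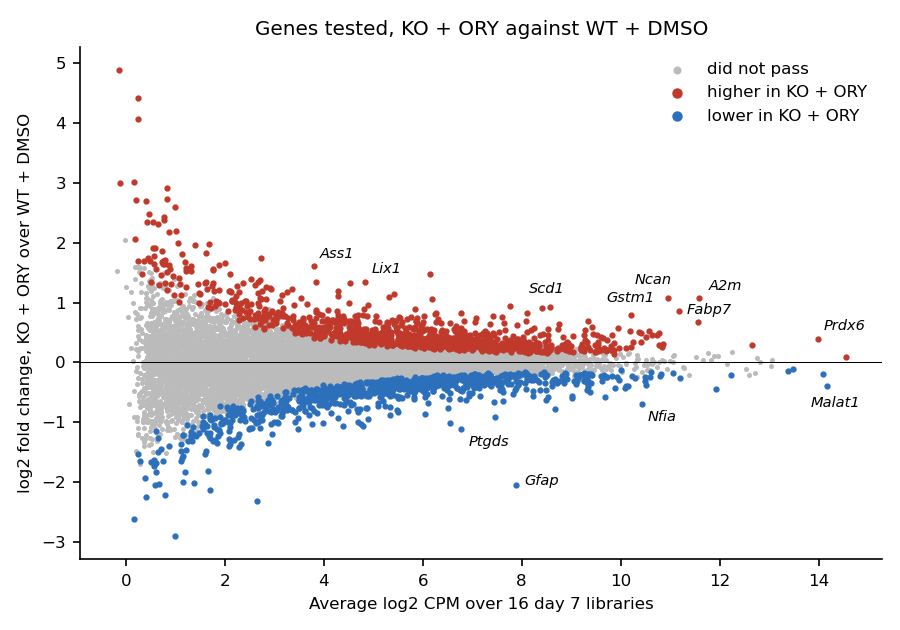
Each of the 11952 genes tested by its average log2 CPM over the 16 day 7 libraries and its log2 fold change, KO + ORY over WT + DMSO. Red points (990) were called higher and blue points (884) lower in KO + ORY, and Gfap, at -2.04, lies far below other genes of its level.

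The targeted gene could not check the labels. Setd1a (chromosome 7, 127776670 to 127800122, plus strand, GRCm38) lay near the detection floor, with 3.21, 2.92, 3.62 and 2.79 CPM in KO + ORY, against 4.01, 3.13, 3.26 and 2.90 CPM in WT + DMSO. The groups overlapped and the log2 fold change was -0.09 ± 0.25, adjusted p = 0.85, with a 95% interval of -0.61 to 0.43. Other genes overlap 52.3% of its exonic length and the libraries do not keep the strand, and the deleted part is not given in the sources used here, so its counts do not test the deletion. Gt(ROSA)26Sor, the noncoding RNA of the locus that holds the reporter and is recombined by Cre, did separate the groups. It had 839, 851, 792 and 757 CPM in KO + ORY, against 1159.9, 1142, 1017 and 1038 CPM in WT + DMSO (log2 fold change -0.43 ± 0.06, adjusted p = 7.8e-06). Every KO + ORY library lay below every WT + DMSO library, and KO + DMSO averaged 782 ± 28.9 CPM (SD, n = 4). Kdm1a, the gene of the inhibited enzyme, had 64.9, 66.9, 68.3 and 68.3 CPM in KO + ORY, against 75.9, 69.1, 72.04 and 70.5 CPM in WT + DMSO, and its log2 fold change of -0.10 ± 0.09, adjusted p = 0.49 did not pass.

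Markers of the labelled cell type were present and those of other brain cells were low. The 12 neural stem cell markers (Vim, Sox9, Slc1a3, Fabp7, Sox2 and others) summed to 10846 to 11992 CPM in KO + ORY and 10993 to 12382 CPM in WT + DMSO. Of the 12, 2 were higher and 3 lower in KO + ORY, 41.7% called against 15.7% of all genes tested. Of 15 microglial markers 8 (Ptprc, Fcrls, C1qa, C1qb, C1qc, Tyrobp, Aif1 and Csf1r) had no counts in either group. Endothelial and mural markers summed to 49.5 to 56.4 CPM in KO + ORY and 44.6 to 53.8 CPM in WT + DMSO, with Cldn5, Cdh5 and Pdgfrb at 0. Neuronal markers summed to 15.1 to 19.5 CPM in KO + ORY and 13.1 to 20.7 CPM in WT + DMSO, with Rbfox3 and Slc17a7 at 0. Fibroblast markers summed to 4.91 to 6.08 CPM in KO + ORY and 2.51 to 5.40 CPM in WT + DMSO, with Col1a1, Col3a1 and Dcn at 0. Ependymal markers were lower, at 44.2 to 52.2 CPM in KO + ORY and 62.3 to 78.3 CPM in WT + DMSO, with 2 of 6 tested called lower, and none of the 12 was at 0 in both groups. Of the oligodendrocyte markers Mag, Sox10 and Mog had no counts.

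Of 6 genes that the study followed as targets, 1 was called in KO + ORY against WT + DMSO. That is 16.7%, near the 15.7% of all genes tested. Bhlhe40, a transcriptional repressor that acts in the clock and in stress responses and on which the study centred (chromosome 6, 108660629 to 108666925, plus strand), had 138, 123, 123 and 115 CPM in KO + ORY, against 138, 119, 115 and 103 CPM in WT + DMSO. The ranges overlapped almost fully, and the log2 fold change of 0.07 ± 0.09, adjusted p = 0.66 left a 95% interval of -0.11 to 0.25, which does not reach a change of 1.2-fold in the direction of lower levels. KO + DMSO averaged 64.5 ± 1.53 CPM and WT + ORY 153 ± 19.3 CPM (SD, n = 4 each). KO + DMSO against WT + DMSO gave -0.88 ± 0.09, adjusted p = 2.5e-08. Its paralogue Bhlhe41 (19.05% of its exonic length shared with an antisense gene) had 42.7, 35.4, 38.7 and 34.8 CPM in KO + ORY, against 40.4, 50.9, 44.2 and 44.8 CPM in WT + DMSO, which did not pass (-0.27 ± 0.11, adjusted p = 0.12). Fbxl5, a ubiquitin ligase subunit that senses iron, was the gene called, with 101, 99.6, 85.6 and 86.8 CPM in KO + ORY, against 128, 114, 109.9 and 102 CPM in WT + DMSO. Its groups did not overlap (-0.28 ± 0.08, adjusted p = 0.021), and it lost the call with summed libraries and without KO + ORY library 3, KO + ORY library 4 or WT + DMSO library 1. Atr, a kinase of the DNA damage checkpoint, Dazap2, an adaptor protein, and Pgk1, a glycolytic kinase, gave log2 fold changes of -0.12 ± 0.15, -0.07 ± 0.04 and -0.09 ± 0.07 and did not pass. The same genes in KO + DMSO gave -0.32, -0.23 and -0.51.

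Astroglial genes stood apart from WT + DMSO in both directions. Of 42 radial glia and astroglia genes tested, 12 were higher, 8 lower and 22 did not pass, with a median log2 fold change of 0.10 where all genes tested had -0.01. Among genes as abundant as most of these (an average log2 CPM of at least 6) 25.8% were called, 14.4% higher and 11.4% lower. The lower count was 5 without KO + ORY library 3, and summed libraries gave 10 higher and 4 lower. Gfap, the intermediate filament protein of astrocytes and of quiescent stem cells (chromosome 11, 102887336 to 102900912, minus strand), had 105, 131, 128 and 139 CPM in KO + ORY, against 468, 509, 517 and 588 CPM in WT + DMSO. The highest KO + ORY library lay far below the lowest WT + DMSO library, and the log2 fold change was -2.04 ± 0.10, adjusted p = 6.8e-14. KO + DMSO averaged 99.5 ± 16.9 CPM and WT + ORY 196 ± 15.6 CPM (SD, n = 4 each). The inhibitor-treated WT cells also stood low (log2 fold change -1.41 against WT + DMSO). Gfap was also lower in KO + ORY than in WT + ORY (-0.64 ± 0.10, adjusted p = 0.0011).

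Ptgds and Apoe, which encode secreted proteins, were lower as Gfap was, while A2m, Ncan and Tnc, described elsewhere, were higher. Ptgds, the synthase of prostaglandin D and a secreted carrier of lipophilic molecules, had 79.1, 70.8, 94.05 and 89.7 CPM in KO + ORY, against 150.4, 158, 198 and 217 CPM in WT + DMSO (-1.12 ± 0.12, adjusted p = 4.9e-07). Apoe, the main lipid carrier of the brain, had 54.7, 64.1, 72.1 and 83.6 CPM in KO + ORY, against 139, 124, 156 and 141 CPM in WT + DMSO (-1.02 ± 0.11, adjusted p = 6.0e-07). Neither gene overlapped between the groups, and KO + DMSO against WT + DMSO gave -1.32 for Ptgds and -0.89 for Apoe. Vim, the other main intermediate filament of these cells, had 4017, 4260.0, 3855 and 4201 CPM in KO + ORY, against 4978, 4741, 4670.4 and 4507 CPM in WT + DMSO. This difference of -0.21 ± 0.04, adjusted p = 0.00092 was not called with summed libraries, and KO + DMSO lay on the other side of WT + DMSO at 0.43.

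Other radial glia genes stood high. Fabp7, a fatty acid binding protein of radial glia, had 2491, 2554, 2314 and 2472 CPM in KO + ORY, against 1411, 1388, 1341 and 1312 CPM in WT + DMSO. All KO + ORY libraries exceeded all WT + DMSO libraries by a wide gap (0.85 ± 0.04, adjusted p = 3.4e-13). KO + DMSO averaged 3055 ± 118 CPM and WT + ORY 2355 ± 75.6 CPM (SD, n = 4 each). Aldoc, an aldolase typical of astrocytes, had 3263, 3114, 3984 and 3598 CPM in KO + ORY, against 1902, 2075, 2246 and 2499.8 CPM in WT + DMSO (0.68 ± 0.08, adjusted p = 1.5e-06). Hopx, a homeodomain gene that marks quiescent stem cells of the dentate gyrus and whose promoter drives the inducible Cre here, had 13.4, 13.6, 12.4 and 14.8 CPM in KO + ORY, against 8.02, 6.79, 9.55 and 8.12 CPM in WT + DMSO. The log2 fold change was 0.76 ± 0.16, adjusted p = 0.0012 (an antisense gene shares 27.2% of its exonic length). Glul, glutamine synthetase, S100b, a calcium binding protein, and Tnc, a matrix glycoprotein of the stem cell niche, gave 0.44 ± 0.06, 0.77 ± 0.12 and 0.75 ± 0.16, all called with no overlap. Slc1a3, the glutamate transporter GLAST and an abundant marker of these cells, had 2375, 2279.5, 2194 and 2103 CPM in KO + ORY, against 2192, 2139, 2068 and 1944 CPM in WT + DMSO. Its groups overlapped (0.10 ± 0.05, adjusted p = 0.19).

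**Figure D3:**
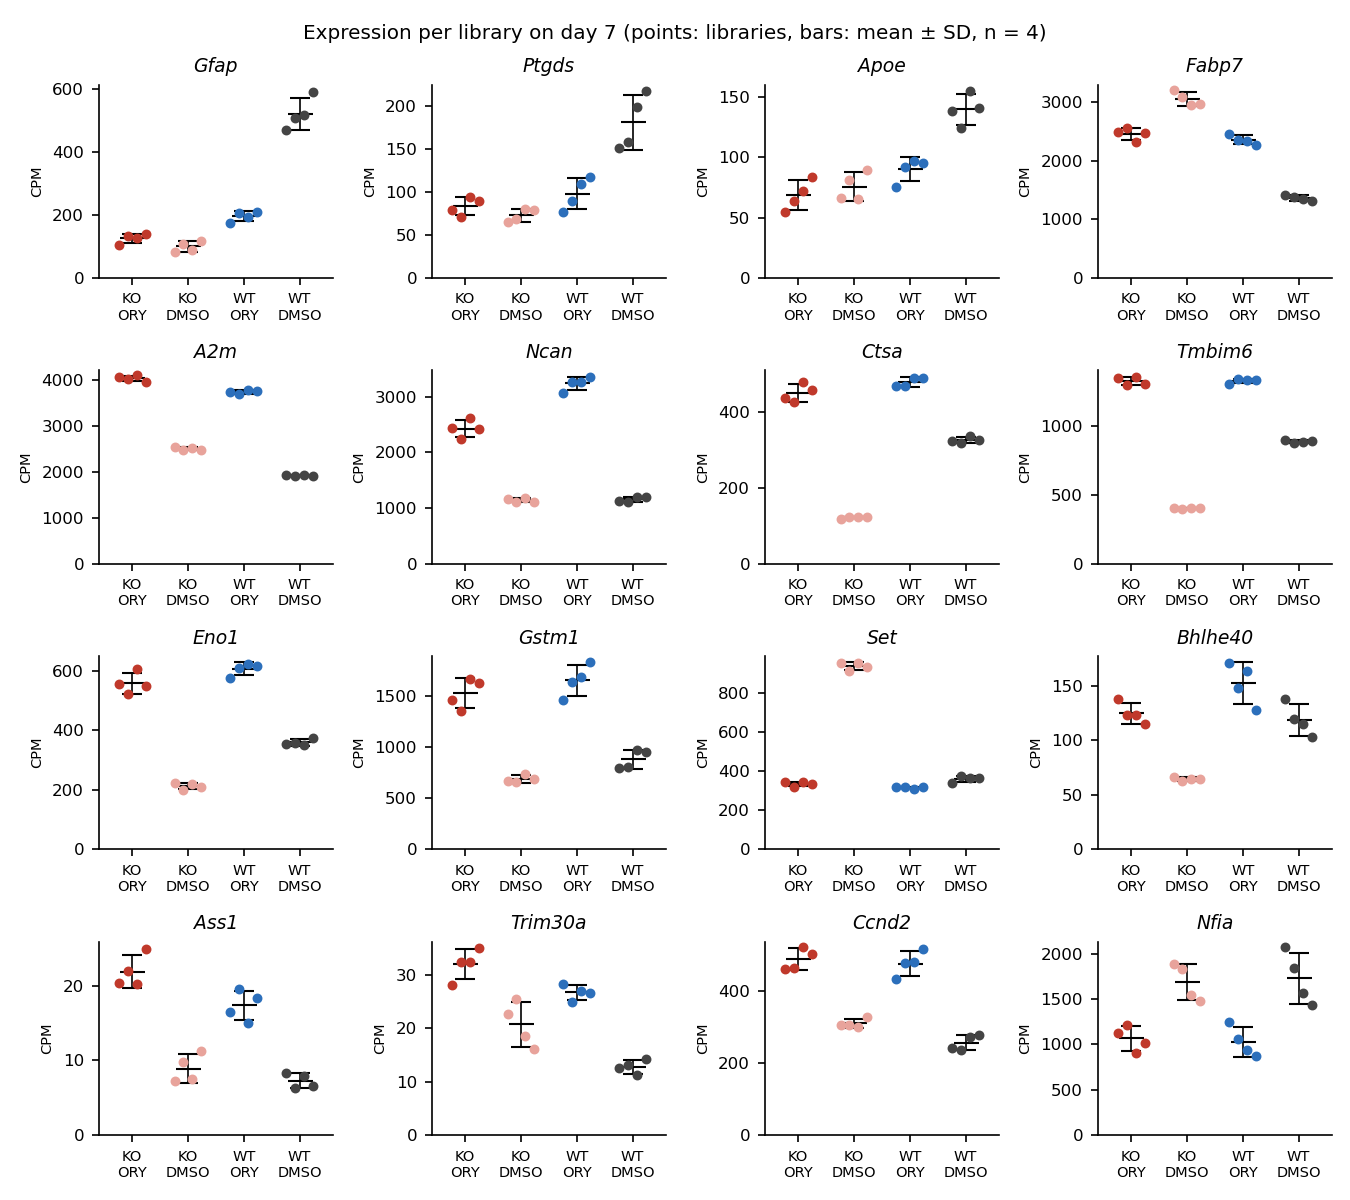
CPM of 16 genes in each day 7 library (points), with group means and SDs (bars, n = 4), KO + ORY at the left and WT + DMSO at the right of each panel. Gfap stays at 105 to 139 CPM in KO + ORY, below the 468 to 588 CPM of WT + DMSO, while Bhlhe40 overlaps WT + DMSO and Ncan and Ass1 exceed it.

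By the rule used to name genes, the most significant genes that were called in the same direction with and without inhibitor included A2m, Fabp7, Scd1, Paqr8, Rab31, Ccnd2 and Gfap. A2m, a broad protease inhibitor of the alpha-2-macroglobulin family, had 4067, 4017, 4105 and 3967 CPM in KO + ORY, against 1936, 1911, 1936 and 1916 CPM in WT + DMSO. Libraries of each group agreed closely, the ratio was 2.10-fold (1.07 ± 0.04, adjusted p = 2.9e-17), and KO + DMSO lay between at 2506 ± 32.01 CPM. WT + ORY averaged 3746 ± 39.1 CPM. Paqr8, a membrane progestin receptor, and Rab31, a small GTPase of endosomal traffic, gave 0.95 ± 0.06 and 0.69 ± 0.05 with inhibitor and 0.75 and 0.48 without.

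Lix1, a gene expressed in the developing limb and brain, had 40.8, 41.1, 32.1 and 36.7 CPM in KO + ORY, against 16.3, 15.1, 13.9 and 13.7 CPM in WT + DMSO. That was a 2.55-fold higher level (1.35 ± 0.11, adjusted p = 1.1e-09), with a log2 value of 1.34 in KO + DMSO. It was also higher in KO + ORY than in WT + ORY (0.68 ± 0.10, adjusted p = 0.00100). Scg2, secretogranin II of neuroendocrine granules, had 17.9, 19.7, 17.3 and 17.4 CPM in KO + ORY, against 9.10, 6.07, 7.01 and 7.15 CPM in WT + DMSO (1.34 ± 0.18, adjusted p = 1.0e-05). Sez6, a membrane protein of neurons, had 46.1, 44.6, 43.3 and 53.6 CPM in KO + ORY, against 16.97, 21.7, 23.7 and 25.5 CPM in WT + DMSO (1.10 ± 0.13, adjusted p = 1.9e-06). Both sit on a list of neuronal genes held down by REST, a repressor that recruits LSD1 with CoREST. Of its 24 members tested 4 were higher, 3 lower and 17 did not pass, with a median of 0.21. That is 29.2% called, where 15.7% of all genes were. KO + DMSO gave 6 higher and 3 lower (37.5%), near the 36% of all genes.

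Lower genes of the same kind included Slc38a2, a transporter of neutral amino acids that responds to their shortage, with 152, 149, 134 and 133 CPM in KO + ORY, against 269, 279, 257 and 259 CPM in WT + DMSO (-0.91 ± 0.07, adjusted p = 7.7e-10). Its KO + DMSO log2 value was -1.003. Ecm2, an extracellular matrix protein, had 16.2, 15.5, 13.6 and 15.6 CPM in KO + ORY, against 31.8, 32.5, 32.3 and 31.5 CPM in WT + DMSO, without overlap (-1.07 ± 0.14, adjusted p = 7.2e-06). Cyp39a1, an oxysterol hydroxylase, and Snrpb, a core protein of the spliceosomal small nuclear ribonucleoproteins, gave -1.03 ± 0.13 and -1.02 ± 0.16, and in KO + DMSO -1.04 and -0.87.

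Another 8 genes were chosen by the rule as the most significant that were called in opposite directions with and without inhibitor. Tmbim6, a calcium channel-like protein of the endoplasmic reticulum that restrains cell death, had 1345, 1294, 1357 and 1304 CPM in KO + ORY, against 897, 877, 880.5 and 893 CPM in WT + DMSO. KO + DMSO averaged 403 ± 4.21 CPM and WT + ORY 1327 ± 15.4 CPM (SD, n = 4 each). Untreated KO cells thus lay under the WT level (-1.14 ± 0.04, adjusted p = 7.1e-17) and treated KO cells above it (0.58 ± 0.04, adjusted p = 3.3e-10), close to the mean of WT + ORY. Eno1, the glycolytic enolase, had 557, 523, 608 and 549 CPM in KO + ORY, against 354, 357, 352 and 374 CPM in WT + DMSO and 213 ± 11.5 CPM in KO + DMSO. Its log2 fold change was 0.64 ± 0.06 with inhibitor and -0.75 without.

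Taldo1, transaldolase of the pentose phosphate pathway, gave 0.77 ± 0.06 with inhibitor and -0.62 without. Gstm1, a glutathione transferase, had 1463, 1359, 1671 and 1631 CPM in KO + ORY, against 801, 805, 968 and 957 CPM in WT + DMSO and gave 0.79 ± 0.07 against -0.36. Prdx6, a peroxiredoxin among the most abundant transcripts of these cells, had 19901, 19148, 21519 and 20558 CPM in KO + ORY, against 14982, 14856, 15692 and 16092 CPM in WT + DMSO. It gave 0.40 ± 0.04 against -0.40 without inhibitor, and Maged1, an adaptor of neurotrophin receptor signalling, 0.53 ± 0.05 against -0.26. In each of these genes no KO + ORY library fell to the level of any WT + DMSO library.

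The mirrored case, lower with inhibitor and higher without, was found in Malat1 and Nmt2. Malat1, a nuclear long noncoding RNA, had 14435, 15236, 14629 and 15130.3 CPM in KO + ORY, against 19378, 19577, 18737 and 20236 CPM in WT + DMSO. KO + DMSO averaged 25573 ± 199.7 CPM (-0.39 ± 0.03 with inhibitor, 0.39 without). Nmt2, an N-myristoyltransferase, had 359, 346, 348 and 324 CPM in KO + ORY, against 528, 528, 509.6 and 502 CPM in WT + DMSO. Its KO + DMSO mean was 866 ± 56.7 CPM (-0.59 ± 0.05 with inhibitor, 0.74 without).

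**Figure D4:**
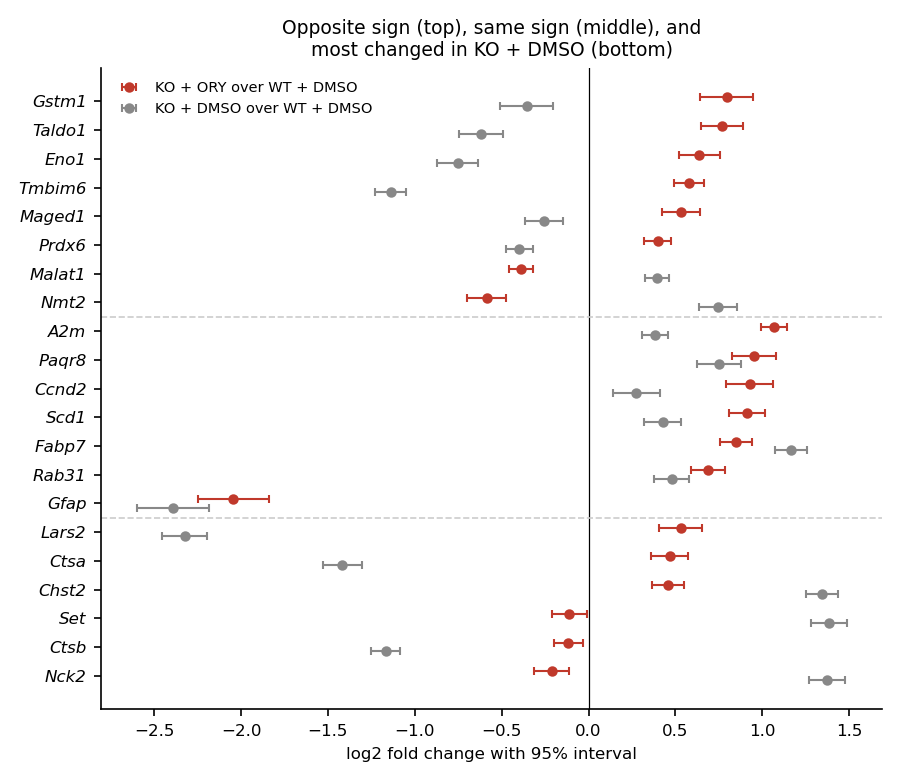
Log2 fold changes with 95% intervals over WT + DMSO, for KO + ORY (red) and KO + DMSO (grey), of described genes that the naming rule chose for opposite signs (top), for the same sign (middle) and for the most significant change in KO + DMSO (bottom). Tmbim6 lies at 0.58 with inhibitor and -1.14 without, Gfap at -2.04 and -2.39, and Set at -0.11 and 1.38.

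Genes named as the most significant in untreated KO cells lay nearer to WT + DMSO in treated KO cells, with some still called on either side of it. Set, a histone chaperone and inhibitor of protein phosphatase, had 341, 316, 343 and 333 CPM in KO + ORY, against 339, 372, 362 and 364 CPM in WT + DMSO and 936 ± 18.7 CPM in KO + DMSO. Its remaining log2 difference of -0.11 ± 0.05, adjusted p = 0.14 did not pass, with a 95% interval of -0.21 to -0.01. Nck2, an adaptor between receptor tyrosine kinases and actin, had 377, 384, 383 and 381 CPM in KO + ORY, against 462, 449.7, 412 and 442 CPM in WT + DMSO, and 1143 ± 11.3 CPM in KO + DMSO. It was still called, on the lower side (-0.21 ± 0.05, adjusted p = 0.0042), although not with summed libraries. Chst2, a sulfotransferase that modifies glycans, lay between KO + DMSO and WT + DMSO, with 1489, 1362, 1452 and 1369 CPM in KO + ORY, against 1033, 1042, 1034 and 1019 CPM in WT + DMSO (0.46 ± 0.04, adjusted p = 6.3e-08, KO + DMSO 1.34). Lars2, the mitochondrial leucyl-tRNA synthetase, whose counts can take in ribosomal RNA reads, had 1553, 1663, 1717 and 1734 CPM in KO + ORY, against 1049.6, 1119, 1198 and 1254 CPM in WT + DMSO (0.53 ± 0.06, adjusted p = 6.6e-07). KO + DMSO averaged 230.5 ± 5.03 CPM.

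Lysosomal genes that were called lay mostly above WT + DMSO in treated KO cells and mostly below it in untreated ones. Of 58 tested, 17 were higher, 4 lower and 37 did not pass in KO + ORY, with a median of 0.10. That is 36.2% called, where 15.7% of all genes tested were called (8.28% higher, 7.4% lower) and 25.8% (14.4% higher, 11.4% lower) of those whose log2 CPM averaged 6 or more. KO + DMSO had 7 higher and 25 lower lysosomal genes, with a median of -0.14, where 16.9% of all genes were higher and 19.1% lower. Summed libraries left 10 higher and 2 lower in KO + ORY. WT + ORY against WT + DMSO gave 16 higher and 1 lower. The CPM of the list added up to 29580.5 to 31842 in KO + ORY and 29554 to 31324 in WT + DMSO. These totals overlapped, with Ctsb a large part of each, and KO + DMSO gave 20442 to 20908 CPM. Ctsa, cathepsin A, a carboxypeptidase that also protects other lysosomal hydrolases, had 436, 427, 478 and 459 CPM in KO + ORY, against 323, 317, 337 and 325 CPM in WT + DMSO, and 122 ± 2.14 CPM in KO + DMSO. The log2 fold change over WT + DMSO was 0.47 ± 0.05, adjusted p = 6.6e-07 (antisense genes share 17.4% of its exonic length). Psap, the precursor of the saposins that help degrade sphingolipids, had 607, 525, 623 and 523 CPM in KO + ORY, against 379, 379.9, 380.2 and 415 CPM in WT + DMSO (0.55 ± 0.07, adjusted p = 2.0e-06). Ctsd, the aspartyl protease cathepsin D, gave 0.54 ± 0.08, with 34.4% of its exonic length shared with a gene model on the same strand. Cln3, a membrane protein mutated in juvenile neuronal ceroid lipofuscinosis, had 24.7, 26.98, 28.5 and 28.5 CPM in KO + ORY, against 14.8, 19.7, 18.01 and 14.9 CPM in WT + DMSO (0.67 ± 0.13, adjusted p = 0.00076). Atp6v0c, a subunit of the proton pump that acidifies the lysosome, and Lipa, the lysosomal acid lipase, gave 0.49 ± 0.09 and 0.50 ± 0.09. KO + DMSO values of these 6 genes were -1.42, -1.06, -0.95, -0.75, -1.16 and -0.27.

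Members on the lower side included Lgmn, Laptm4a and Ctsb. Lgmn, the asparaginyl endopeptidase legumain, had 250.5, 283, 274 and 275 CPM in KO + ORY, against 350.3, 355, 337 and 329.9 CPM in WT + DMSO (-0.34 ± 0.06, adjusted p = 0.00048). With 147 ± 12.9 CPM in KO + DMSO, treated KO cells lay between untreated KO cells and WT. Ctsb, cathepsin B, had 12363, 11869.9, 13209 and 12554 CPM in KO + ORY, against 12964, 13003, 14170.0 and 14036 CPM in WT + DMSO. The difference was small, with overlapping groups (-0.12 ± 0.04, adjusted p = 0.049), and most other settings did not call it, where KO + DMSO stood at -1.17. An antisense gene shares 12.8% of its exonic length.

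Many lysosomal genes carry CACGTG, a palindromic E-box at the core of the element read by the MiT/TFE factors, which include TFEB. The windows from 250 bases before to 50 bases after the start site (RefSeq, GRCm38.p6) were searched for it. It was found in 16 of 45 lysosomal genes with a window (35.6%) and in 5 of the 15 called higher (33.3%), where 12.1% of the 9181 tested genes with a window and 7.15% of all 32851 windows held it. Among all genes called higher 12.3% held it. The windows of Ctsa, Ctsd and Cln3, each with 2 matches, are shown because these genes stood on opposite sides of WT with and without inhibitor, and capitals mark CACGTG.
Ctsa (chr2:164833523-164833822, plus strand): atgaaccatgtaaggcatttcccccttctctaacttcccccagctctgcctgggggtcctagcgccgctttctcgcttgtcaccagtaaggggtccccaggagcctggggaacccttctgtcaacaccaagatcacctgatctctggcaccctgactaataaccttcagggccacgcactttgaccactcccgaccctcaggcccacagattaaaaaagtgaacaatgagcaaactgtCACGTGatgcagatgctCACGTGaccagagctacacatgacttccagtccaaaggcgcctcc
Ctsd (chr7:142387778-142388077, minus strand): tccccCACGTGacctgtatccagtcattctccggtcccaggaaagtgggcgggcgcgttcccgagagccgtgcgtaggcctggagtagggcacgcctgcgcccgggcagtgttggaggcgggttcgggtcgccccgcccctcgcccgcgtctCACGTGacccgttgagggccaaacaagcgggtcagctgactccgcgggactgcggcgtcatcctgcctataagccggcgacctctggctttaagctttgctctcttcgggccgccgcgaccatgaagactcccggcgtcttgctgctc
Cln3 (chr7:126583187-126583486, minus strand): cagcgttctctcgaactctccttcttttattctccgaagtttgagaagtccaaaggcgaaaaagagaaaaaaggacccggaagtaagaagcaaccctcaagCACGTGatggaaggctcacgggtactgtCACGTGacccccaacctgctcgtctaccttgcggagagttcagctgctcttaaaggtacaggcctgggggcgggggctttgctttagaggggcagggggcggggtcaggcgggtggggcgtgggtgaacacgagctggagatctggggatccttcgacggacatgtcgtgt
A match is a description of these letters and not evidence of a bound factor. In Ctsa the matches begin 12 bases before and 5 bases after the start site of the window shown, in Ctsd 245 and 98 bases before it, and in Cln3 149 and 121 bases before it. Ctsa and Cln3 have 2 windows each, and the first that held a match is shown.

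Most genes of energy metabolism did not pass, and more of those called were higher than lower in treated KO cells. Of 22 glycolysis genes 7 were higher and 1 lower (median 0.04), 36.4% called against 15.7% of all genes. KO + DMSO had 3 higher and 12 lower (median -0.51), 68.2% called against 36%. WT + ORY against WT + DMSO had 11 higher and 1 lower, 54.5% called against 15.1%. Pkm, pyruvate kinase, had 435, 434, 472 and 449 CPM in KO + ORY, against 302, 305, 336 and 355 CPM in WT + DMSO (0.47 ± 0.06, adjusted p = 7.4e-06). KO + DMSO had 128 ± 9.36 CPM, with no overlap between KO + ORY and either DMSO group. A gene model on the same strand shares 15.3% of its exonic length. Ldha, lactate dehydrogenase A, had 709, 687, 830.2 and 755 CPM in KO + ORY, against 587, 605, 678 and 726 CPM in WT + DMSO, with overlap. Its call (0.20 ± 0.07, adjusted p = 0.048) was lost with summed libraries and without KO + ORY library 3, KO + ORY library 4 or WT + DMSO library 1, 2 or 3.

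Of 25 genes of the tricarboxylic acid cycle 9 were higher and 1 lower, and of 72 nuclear genes of oxidative phosphorylation 15 were higher and 1 lower, with medians of 0.13 and 0.09. That is 40% and 22.2% called, where 15.7% of all genes and 25.8% of those whose log2 CPM averaged 6 or more were, so the oxidative phosphorylation share lay under that of abundant genes. With summed libraries 3 genes of the cycle were higher and 1 lower, and 4 oxidative phosphorylation genes were called, all higher. Aco1, the cytosolic aconitase that also serves as an iron sensor, had 71.3, 80.7, 73.2 and 76.8 CPM in KO + ORY, against 55.8, 48.9, 54.5 and 55.5 CPM in WT + DMSO (0.50 ± 0.09, adjusted p = 0.00019). Fh1, fumarate hydratase, gave 0.37 ± 0.07. Idh2, the mitochondrial isocitrate dehydrogenase, was the member lower, with 157, 156, 202 and 183 CPM in KO + ORY, against 213, 233, 266 and 278 CPM in WT + DMSO (-0.50 ± 0.10, adjusted p = 0.00082). Cycs, cytochrome c, and Cox6c, a subunit of cytochrome c oxidase, gave 0.37 ± 0.07 and 0.47 ± 0.06, less than the 0.99 and 0.65 of KO + DMSO. In KO + DMSO 41 oxidative phosphorylation genes were higher and 4 lower, 62.5% called against 36% of all genes. WT + ORY against WT + DMSO had 7 higher and 2 lower genes of the cycle. Its oxidative phosphorylation genes had 4 higher and 0 lower, where all genes had 8.16% higher and 6.91% lower. Of the 78 cytosolic ribosomal protein genes 1 was called, higher, at a median of 0.03.

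**Figure D5:**
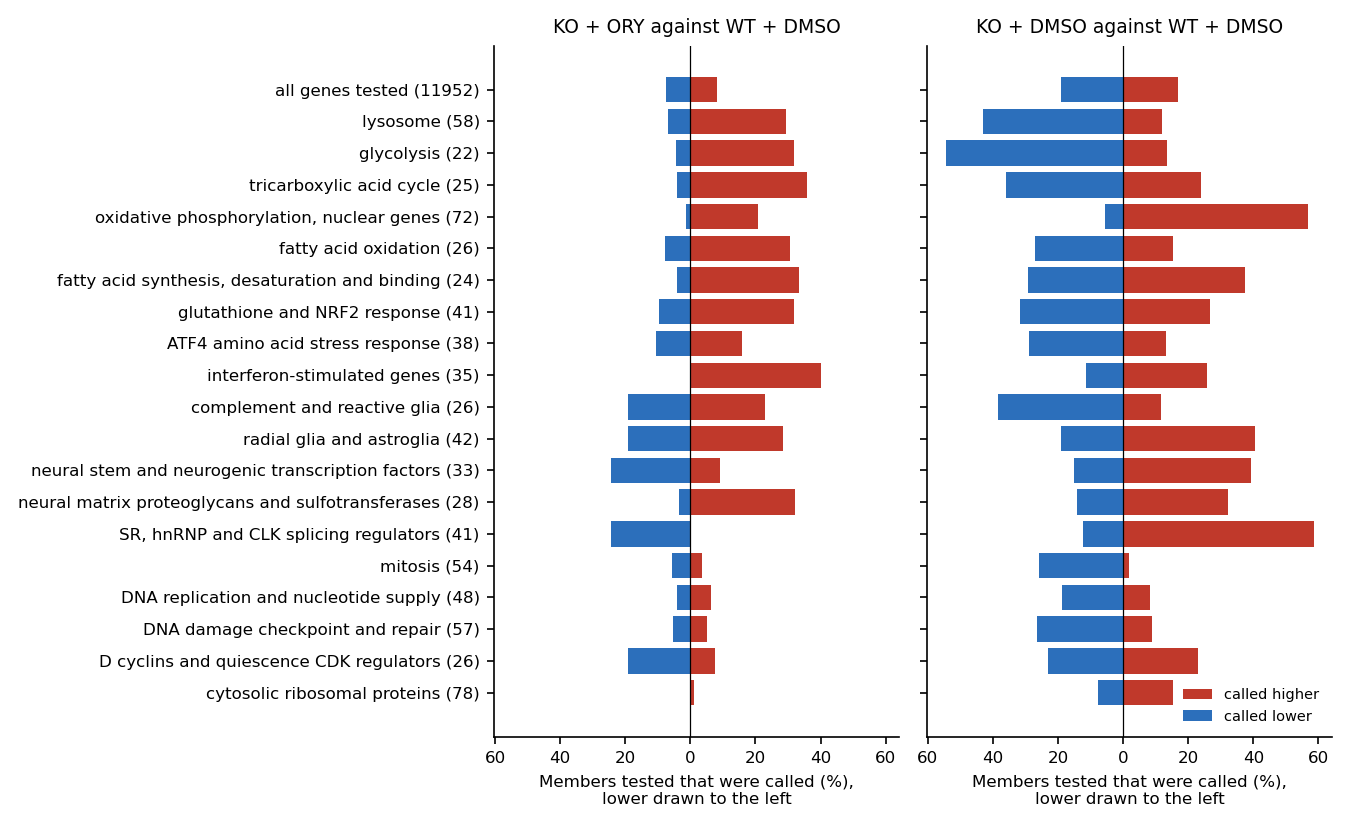
Share of the tested members of each gene list that were called higher (red, to the right) or lower (blue, to the left) against WT + DMSO, in KO + ORY (left panel) and KO + DMSO (right panel), with the number tested in brackets and all genes tested in the top row. In the lysosome row 17 of 58 members were higher and 4 lower in KO + ORY, against 7 higher and 25 lower in KO + DMSO.

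Most lipid genes did not pass, and more of those called were higher than lower. All genes tested had 8.28% higher and 7.4% lower. Of the lipid lists, fatty acid synthesis, desaturation and binding had 8 higher and 1 lower of 24 (median 0.14), led by Fabp7 and by Scd1. Scd1, the desaturase that makes oleate, had 443, 427, 414 and 418 CPM in KO + ORY, against 232, 223, 227 and 223 CPM in WT + DMSO (0.91 ± 0.05, adjusted p = 1.2e-12). Fatty acid oxidation had 8 higher and 2 lower of 26 (median 0.09), and 5 higher without WT + DMSO library 2. Hadha and Hadhb, the subunits of the mitochondrial trifunctional protein, were both called. Hadha had 132, 116, 138 and 128 CPM in KO + ORY, against 78.8, 86.6, 83.04 and 89.5 CPM in WT + DMSO, and Hadhb had 249, 257, 236 and 233 CPM in KO + ORY, against 169.7, 162, 187 and 155 CPM in WT + DMSO. Both were higher without overlap (0.60 ± 0.07 and 0.53 ± 0.06), and did not pass in KO + DMSO (-0.08 and 0.07). Acot1, a thioesterase that releases fatty acids from coenzyme A, was lower, with 13.4, 15.3, 18.98 and 19.00 CPM in KO + ORY, against 28.2, 28.7, 27.8 and 33.2 CPM in WT + DMSO (-0.81 ± 0.12, adjusted p = 5.4e-05). Cholesterol synthesis and sterol control had 4 higher and 2 lower of 33 (median 0.12), where KO + DMSO had 3 higher and 12 lower. All genes had 16.9% higher and 19.1% lower in KO + DMSO. WT + ORY against WT + DMSO had 8 higher and 1 lower in fatty acid synthesis, 5 and 4 in oxidation and 5 and 2 in cholesterol synthesis. There, all genes had 8.16% higher and 6.91% lower.

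Of 41 genes of glutathione metabolism and the NRF2 response 13 were higher and 4 lower (median 0.09), where 8.28% of all genes tested were higher and 7.4% lower. The count was 9 higher and 3 lower with summed libraries. KO + DMSO had 11 higher and 13 lower, where all genes had 16.9% higher and 19.1% lower. WT + ORY against WT + DMSO had 12 higher and 3 lower, where all genes had 8.16% higher and 6.91% lower. Gstm7, a glutathione transferase, had 50.96, 52.5, 58.8 and 49.5 CPM in KO + ORY, against 21.7, 25.9, 21.6 and 26.7 CPM in WT + DMSO, with no overlap (1.14 ± 0.10, adjusted p = 5.3e-09). WT + ORY gave 1.21. Gss, glutathione synthetase, had 43.6, 37.9, 51.1 and 49.4 CPM in KO + ORY, against 22.1, 30.01, 25.7 and 34.4 CPM in WT + DMSO (0.69 ± 0.12, adjusted p = 0.00029). KO + DMSO gave -0.81, and antisense genes share 15.4% of its exonic length. Gpx1 and Sod1, which clear peroxide and superoxide, stood on the other side. Gpx1, glutathione peroxidase, had 298, 313, 303 and 339 CPM in KO + ORY, against 484, 477, 480.3 and 505 CPM in WT + DMSO (-0.63 ± 0.06, adjusted p = 1.2e-07). Sod1, superoxide dismutase, had 103, 104, 117 and 122 CPM in KO + ORY, against 122, 146, 158 and 175 CPM in WT + DMSO (-0.43 ± 0.09, adjusted p = 0.0025). Fth1, the ferritin heavy chain that stores iron, had 3280.0, 3591, 3365 and 3833 CPM in KO + ORY, against 4655, 4729.5, 4866 and 4980.0 CPM in WT + DMSO (-0.45 ± 0.05, adjusted p = 2.0e-06) and KO + DMSO gave -0.53. The 14 genes of iron sensing, storage and uptake, Fth1 and Aco1 among them, had 4 higher and 3 lower.

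Another set of genes lay near WT + DMSO in untreated KO cells and away from it in treated ones. Ncan, neurocan, a chondroitin sulphate proteoglycan of the brain matrix, had 2437, 2235, 2612 and 2421 CPM in KO + ORY, against 1121, 1115, 1189 and 1195 CPM in WT + DMSO. This was a 2.10-fold higher level (1.07 ± 0.05, adjusted p = 2.3e-14). KO + DMSO averaged 1139 ± 35.9 CPM, a log2 difference of -0.02 ± 0.05, adjusted p = 0.79 with a 95% interval of -0.12 to 0.08, and WT + ORY averaged 3242 ± 124 CPM. KO + ORY therefore lay between WT + ORY and WT + DMSO (-0.42 ± 0.05, adjusted p = 5.1e-05 against WT + ORY). Of 28 matrix proteoglycan and sulfotransferase genes 9 were higher and 1 lower, with a median of 0.15. Of all genes tested 8.28% were higher and 7.4% lower. Ass1, argininosuccinate synthetase of arginine synthesis, had 20.4, 21.9, 20.2 and 24.96 CPM in KO + ORY, against 8.33, 6.36, 7.86 and 6.57 CPM in WT + DMSO, with a ratio of 3.05 (1.61 ± 0.16, adjusted p = 5.8e-08). Bcat1, the cytosolic aminotransferase of branched-chain amino acids, had 11.3, 13.8, 15.4 and 16.6 CPM in KO + ORY, against 3.08, 7.37, 7.13 and 7.34 CPM in WT + DMSO (1.17 ± 0.20, adjusted p = 0.00017). Library 1 was the lowest of the WT + DMSO values. KO + DMSO gave 0.29 for Ass1 and -0.01 for Bcat1, and neither passed. WT + ORY gave 1.26 for Ass1 and 0.75 for Bcat1, and both passed.

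Slc29a1, a nucleoside transporter, had 17.2, 18.4, 14.7 and 19.1 CPM in KO + ORY, against 8.64, 8.19, 7.62 and 8.89 CPM in WT + DMSO (1.07 ± 0.14, adjusted p = 7.1e-06) and stood at -0.73 in KO + DMSO. Gca, a calcium binding protein first found in granulocytes (20.4% shared with an antisense gene), Nt5dc2, a nucleotidase-like protein, and Pik3r3, a regulatory subunit of phosphoinositide 3-kinase (24.3% shared with a gene model on the same strand), were among the genes with the highest log2 fold changes. Their values were 1.23 ± 0.24, 1.12 ± 0.22 and 1.11 ± 0.17. They were weakly expressed, at 8.87 to 27.3 CPM in KO + ORY and 2.31 to 13.3 CPM in WT + DMSO. Gca was also called higher in KO + DMSO (0.83, adjusted p = 0.0080), and it did not pass in WT + ORY (0.53, adjusted p = 0.16).

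Interferon-stimulated genes that were called were higher in treated KO cells. Of 35 tested 14 were higher and 21 did not pass (median 0.26), with 9 higher in summed libraries, where 8.28% of all genes tested were higher. KO + DMSO had 9 higher and 4 lower (median 0.07), where all genes had 16.9% higher and 19.1% lower. WT + ORY against WT + DMSO had 18 called, all higher, where 8.16% of all genes were higher. Trim30a, a ubiquitin ligase induced by interferon in mice, had 28.1, 32.4, 32.4 and 34.97 CPM in KO + ORY, against 12.5, 13.1, 11.2 and 14.3 CPM in WT + DMSO (1.33 ± 0.13, adjusted p = 5.8e-08). Usp18, which removes ISG15 from proteins and damps the pathway, had 78.1, 69.1, 73.7 and 74.5 CPM in KO + ORY, against 41.95, 40.03, 49.6 and 46.4 CPM in WT + DMSO (0.74 ± 0.08, adjusted p = 9.0e-07). No KO + ORY library of Trim30a or Usp18 came down to any WT + DMSO library. Samd9l, an antiviral protein, gave 0.90 ± 0.15. Ifit1, which binds foreign RNA, had 138, 138, 135 and 123 CPM in KO + ORY, against 96.6, 108, 93.1 and 90.05 CPM in WT + DMSO (0.45 ± 0.08, adjusted p = 0.00027). Psmb9, a subunit of the immunoproteasome, had 10.6, 10.7, 10.5 and 13.05 CPM in KO + ORY, against 3.24, 5.35, 5.32 and 4.83 CPM in WT + DMSO (1.23 ± 0.20, adjusted p = 9.8e-05). With H2-T22 and B2m it made 3 higher of 11 antigen presentation genes.

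The interferon-stimulated response element is built around GAAA, any 2 bases and GAAA again, a motif searched here after the values had been seen. It was found in 15 of 28 interferon-stimulated genes with a promoter window (53.6%) and in 3 of the 8 called higher (37.5%), where 3.52% of the tested genes with a window and 3.44% of all windows held it, on either strand. The windows of Ifit1 and Trim30a are shown as called members that hold it, with capitals for the match, which reads on the opposite strand in both.
Ifit1 (chr19:34640639-34640938, plus strand): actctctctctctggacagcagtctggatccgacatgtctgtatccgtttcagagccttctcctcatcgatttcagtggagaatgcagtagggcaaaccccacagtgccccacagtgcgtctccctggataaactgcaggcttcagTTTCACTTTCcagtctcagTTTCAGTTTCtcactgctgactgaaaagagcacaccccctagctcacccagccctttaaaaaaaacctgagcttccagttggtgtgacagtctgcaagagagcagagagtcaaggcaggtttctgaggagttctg
Trim30a (chr7:104465144-104465443, minus strand): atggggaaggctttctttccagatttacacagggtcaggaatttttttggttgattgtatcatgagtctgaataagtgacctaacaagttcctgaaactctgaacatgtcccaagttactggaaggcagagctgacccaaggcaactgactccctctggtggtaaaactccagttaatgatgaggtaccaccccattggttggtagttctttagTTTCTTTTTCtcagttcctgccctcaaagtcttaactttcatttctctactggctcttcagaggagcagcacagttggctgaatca
The matches begin 104 and 85 bases before the start site in Ifit1 and 36 bases before it in Trim30a. Trim30a has 2 windows, and the first that held a match is shown.

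Genes of complement and reactive glia went both ways, with 6 higher and 5 lower of 26. That is 42.3% called, against 15.7% of all genes. KO + DMSO had 3 higher and 10 lower, 50% called against 36%. Serping1, an inhibitor of the C1 protease, had 20.8, 16.5, 18.5 and 14.8 CPM in KO + ORY, against 6.94, 9.97, 8.95 and 9.08 CPM in WT + DMSO (0.98 ± 0.18, adjusted p = 0.00039). C1s1, a C1 protease (18.4% shared with an antisense gene), had 29.4, 25.2, 23.1 and 24.5 CPM in KO + ORY, against 15.1, 12.2, 17.3 and 15.3 CPM in WT + DMSO (0.79 ± 0.13, adjusted p = 0.00010). In KO + DMSO the same genes lay on the other side, at -0.70 and -0.79. Serpina3n, a protease inhibitor of reactive astrocytes, gave 0.25 ± 0.06 with inhibitor and -0.63 without, and was not called with summed libraries. Emp1, an epithelial membrane protein also raised in reactive astrocytes, had 6.80, 5.84, 6.73 and 6.46 CPM in KO + ORY, against 15.4, 12.8, 11.6 and 16.2 CPM in WT + DMSO (-1.11 ± 0.19, adjusted p = 0.00022). Il33, a nuclear alarmin of astrocytes, had 39.4, 37.6, 31.1 and 35.98 CPM in KO + ORY, against 50.4, 52.7, 53.4 and 46.4 CPM in WT + DMSO (-0.50 ± 0.12, adjusted p = 0.0050), nearer to WT than the -1.86 of KO + DMSO.

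Among stress genes, the 38 targets of ATF4, the transcription factor of the amino acid response, had 6 higher and 4 lower (median 0.15). The higher ones were Asns, Aldh18a1 and 4 aminoacyl-tRNA synthetases. Among these, Aars had 42.3, 42.3, 42.1 and 42.6 CPM in KO + ORY, against 21.9, 29.5, 28.5 and 33.04 CPM in WT + DMSO (0.58 ± 0.11, adjusted p = 0.00077, 15.1% shared). Sars had 207, 173, 205 and 179 CPM in KO + ORY, against 141, 133, 145 and 136 CPM in WT + DMSO (0.46 ± 0.07, adjusted p = 4.5e-05). Sars was lower in KO + DMSO (-0.70) and Aars higher (0.44). Chaperones of the endoplasmic reticulum had 7 higher and 3 lower of 30, and 4 higher without WT + DMSO library 3 or library 4. The ATF4 and chaperone lists had 26.3% and 33.3% called. Of all genes tested 15.7% were called, and 25.8% of those whose log2 CPM averaged 6 or more. Calr, the calcium binding chaperone calreticulin, had 236, 236, 249 and 237 CPM in KO + ORY, against 136, 154, 156 and 163 CPM in WT + DMSO (0.65 ± 0.07, adjusted p = 3.3e-07).

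Splicing regulators that were called lay on the lower side. Of 41 SR, hnRNP and CLK genes 10 were lower and 31 did not pass (median -0.11), 24.4% called, where 7.4% of all genes tested and 11.4% of those whose log2 CPM averaged 6 or more were lower. Of the list 6 were lower without KO + ORY library 4 and 4 with summed libraries. KO + DMSO had 24 higher and 5 lower, against 16.9% and 19.1% of all genes. In WT + ORY against WT + DMSO 2 were higher and 14 lower (median -0.11), where all genes had 8.16% higher and 6.91% lower. Luc7l3, an SR-related protein, had 883, 857, 835 and 783 CPM in KO + ORY, against 1201, 1129.7, 1072 and 993 CPM in WT + DMSO (-0.39 ± 0.06, adjusted p = 6.1e-05). Srsf10, an SR protein active in splicing repression, had 257, 249.6, 213 and 213 CPM in KO + ORY, against 361, 345, 309 and 284 CPM in WT + DMSO (-0.48 ± 0.09, adjusted p = 0.00052). Srsf5 had 674, 688, 536 and 567 CPM in KO + ORY, against 1002, 931, 809.9 and 745 CPM in WT + DMSO (-0.50 ± 0.10, adjusted p = 0.00077). Library 1 and library 2 stood above library 3 and library 4 in both groups for these genes, and the groups still did not overlap. Srsf2, with 25.3% of its exonic length shared with antisense genes, gave -0.36 ± 0.10 against 0.94 in KO + DMSO. It was not called with summed libraries or without KO + ORY library 3, KO + ORY library 4, WT + DMSO library 1 or WT + DMSO library 2. KO + DMSO gave 0.63 for Luc7l3, 0.30 for Srsf10 and -0.69 for Srsf5.

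Few proliferation genes were called. Of 54 mitosis genes 2 were higher and 3 lower (9.26% called). Of 48 genes of DNA replication and nucleotide supply 3 were higher and 2 lower (10.4%), and of 57 genes of the DNA damage checkpoint and repair 3 higher and 3 lower (10.5%), all under the 15.7% of all genes. KO + DMSO had 1 higher and 14 lower mitosis genes, 4 higher and 9 lower replication genes, and 5 higher and 15 lower repair genes. That is 27.8%, 27.1% and 35.1% called, all under the 36% of all genes (16.9% higher, 19.1% lower). In WT + ORY against WT + DMSO 14 mitosis genes were higher and 1 lower (27.8% called against 15.1% of all genes). There, replication genes had 3 higher and 4 lower (14.6%), and repair genes 3 higher and 2 lower (8.77%). Between KO + ORY and WT + ORY 4 mitosis genes were called, all lower in KO + ORY (7.41% against 1.15% of all genes). Mki67, the proliferation antigen Ki-67, had 7.17, 3.93, 4.14 and 5.07 CPM in KO + ORY, against 1.85, 2.31, 3.87 and 2.90 CPM in WT + DMSO (0.88 ± 0.30, adjusted p = 0.044). The call was lost without KO + ORY library 1, 3 or 4 or WT + DMSO library 1, 2 or 4. Kif11, a kinesin of the spindle, had 1.89, 2.92, 3.97 and 2.03 CPM in KO + ORY, against 4.94, 6.17, 5.56 and 3.86 CPM in WT + DMSO (-0.96 ± 0.30, adjusted p = 0.029), with overlap. Rrm2, the ribonucleotide reductase subunit that limits nucleotide supply, had 16.8, 14.3, 15.4 and 16.8 CPM in KO + ORY, against 10.3, 10.7, 13.4 and 13.5 CPM in WT + DMSO (0.41 ± 0.13, adjusted p = 0.038). Kif11 and Rrm2, and Mcm7 of the replicative helicase (0.49 ± 0.17, 12.6% shared), each lost the call without at least 5 of the 8 libraries, taken in turn.

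Several regulators of the G1 phase were called, with cyclins D1 and D2 on the higher side. Ccnd2, cyclin D2, had 460.0, 465, 523 and 504 CPM in KO + ORY, against 242, 236, 273 and 277 CPM in WT + DMSO (0.93 ± 0.07, adjusted p = 2.1e-10). Ccnd1, cyclin D1 (23.4% shared with an antisense gene), had 13.8, 13.2, 11.2 and 13.8 CPM in KO + ORY, against 8.48, 7.27, 9.07 and 8.70 CPM in WT + DMSO (0.65 ± 0.16, adjusted p = 0.0049). KO + DMSO gave 0.27 and 0.53, and WT + ORY gave 0.89 and 0.69. Cdkn1a, Cdkn2b and Cdkn1b, inhibitors of cyclin-dependent kinases, stood on the lower side. Cdkn1a, the p21 inhibitor of cyclin-dependent kinases, had 182, 190.3, 214 and 212 CPM in KO + ORY, against 257, 259.5, 308 and 333 CPM in WT + DMSO (-0.53 ± 0.09, adjusted p = 0.00020). Cdkn2b, the p15 inhibitor, had 8.31, 10.1, 7.08 and 7.73 CPM in KO + ORY, against 12.6, 13.6, 13.2 and 18.4 CPM in WT + DMSO (-0.77 ± 0.17, adjusted p = 0.0029). Cdkn1b, the p27 inhibitor, was lower with overlapping groups (-0.31 ± 0.09, adjusted p = 0.019), but not with summed libraries or without KO + ORY library 2, KO + ORY library 3, WT + DMSO library 1 or WT + DMSO library 3. KO + DMSO gave -0.29 for Cdkn1a and 0.29 for Cdkn1b, which both passed, and -0.36 for Cdkn2b, which did not. Over the list of D cyclins and kinase regulators of quiescence 2 of 26 were higher and 5 lower, and 3 were lower without KO + ORY library 1, KO + ORY library 3, WT + DMSO library 2 or WT + DMSO library 3. Of 30 p53 targets 4 were higher and 4 lower. The list of D cyclins and kinase regulators and the p53 list had 26.9% and 26.7% called. Of all genes tested 15.7% were called, and 25.8% of those whose log2 CPM averaged 6 or more.

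More transcription factors of neural stem cells were called lower than higher, but not with summed libraries. Of 33 tested 3 were higher and 8 lower (median -0.05), with 5 lower without KO + ORY library 3, KO + ORY library 4 or WT + DMSO library 1, and 3 higher and 3 lower with summed libraries. KO + DMSO had 13 higher and 5 lower. That is 33.3% called in KO + ORY and 54.5% in KO + DMSO, where 15.7% and 36% of all genes were. In WT + ORY against WT + DMSO 3 were higher and 9 lower, 36.4% called against 15.1% of all genes. Nfia, which promotes the astroglial fate, had 1125, 1212, 905 and 1020.3 CPM in KO + ORY, against 2074, 1843, 1564 and 1436 CPM in WT + DMSO (-0.70 ± 0.11, adjusted p = 5.8e-05), and the value in KO + DMSO was -0.03. Sox4, an early neuronal factor, had 17.4, 20.1, 15.9 and 20.5 CPM in KO + ORY, against 31.9, 32.9, 31.2 and 32.3 CPM in WT + DMSO (-0.78 ± 0.11, adjusted p = 2.7e-05, 54.6% shared with an antisense gene). Sox2, a core factor of neural stem cells, had 169, 167, 139 and 148 CPM in KO + ORY, against 219, 194, 205 and 155 CPM in WT + DMSO, with overlap. Its call (-0.31 ± 0.09, adjusted p = 0.021) was lost with summed libraries and without KO + ORY library 3 or 4 or WT + DMSO library 1 or 3.

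On the higher side Id2, an inhibitor of basic helix-loop-helix factors induced by BMP, had 2005, 2068, 1919 and 1954 CPM in KO + ORY, against 1509, 1425, 1389 and 1344 CPM in WT + DMSO (0.49 ± 0.05, adjusted p = 5.1e-08). Hes1, the Notch effector, had 7.17, 5.34, 6.73 and 7.09 CPM in KO + ORY, against 4.32, 2.26, 2.18 and 2.32 CPM in WT + DMSO (1.28 ± 0.25, adjusted p = 0.00076). Npas2, a partner of the clock factor BMAL1, was lower at -0.99 ± 0.19. Enkur, a protein of motile cilia, had 19.6, 19.9, 25.2 and 19.00 CPM in KO + ORY, against 41.95, 44.03, 34.7 and 40.2 CPM in WT + DMSO (-0.95 ± 0.11, adjusted p = 2.0e-06), with 34.5 ± 1.71 CPM in KO + DMSO. The sum of ependymal markers was lower beside it, as given above, and the part of ependymal cells in Enkur was not tested.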

How the data were processed

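RNA of 16 day 7 libraries was measured by SMART-seq2, and the 8 of KO + ORY and WT + DMSO carry the comparison. The values are whole-number counts per gene deposited by the authors, who demultiplexed with bcl2fastq 2.17.1.14, trimmed with Trimmomatic 0.32 and aligned to GRCm38 with STAR 2.5.2a, per the labels. Per the study's methods, STAR's quantMode then counted reads per gene, keeping only those that mapped to 1 place. Its strand setting is not given in the sources used here. The table holds 39017 genes, of which 37693 matched a GENCODE vM21 symbol, and the rest took at most 0.198% of a library's counts. Groups came from the labels.

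Counts were fitted in edgeR 4.0.16 (R 4.3.3, limma 3.58.1) over all 16 libraries with group as the only term. The filterByExpr filter (count 10, total 15) left 11952 genes. TMM factors were 0.926 to 1.04. The test was edgeR's quasi-likelihood test (legacy form) with Benjamini-Hochberg adjustment over these genes and a threshold of 0.05. The common biological coefficient of variation was 0.0998. CPM divides counts by the library size in M after TMM scaling, ± after a log2 fold change is its SE, and a log2 fold change given without another name is the first group named over WT + DMSO. On simulated data the test was checked for calls and direction. Fold changes of low genes depend on the prior count of edgeR, and depth limits genes near the floor. Exonic length shared with other genes is given where it is over 10%, since the libraries do not keep the strand.

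The 55 gene lists and the members were chosen with earlier results of these data known, and lists are described by counts and medians with no set test. Genes were named by a rule: 9 always followed, the 14 highest and 14 lowest called genes without overlap whose log2 CPM averaged at least 3, up to 4 per list, and 8 each called in the opposite direction to KO + DMSO, called in the same direction, or most significant in KO + DMSO. It gave 195 genes, of which the text describes a part, and 23 more were chosen after their values were seen (S100b, Tnc, Sox2, Slc1a3, Glul, Hes1, Cdkn1b, Mki67, Kif11, Mcm7, Ldha, Cln3, Lgmn, Lipa, Gss, Gpx1, Sod1, Ifit1, Psmb9, Il33, Serping1, Serpina3n and Srsf2). Some genes that the rule gave are not reported here.

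RefSeq promoter windows matched 165 of the 218 genes named. Replicate numbers were checked as pairs by the correlation of deviations from the group means, which gave 0.134, 0.0767, 0.0553 and 0.117 for the same number, not all over 0.1, so they were not taken to pair the libraries. Alternatives tried were other scalings and filters, DESeq2 1.42.0, limma-voom, the current edgeR form, only the 8 libraries, a replicate block, summed libraries, a minimum change, GC and length trends removed and leaving out each library.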

Additional observations from a re-analysis of the deposited data

Results flagged for a closer look

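A check for outlying libraries covered 220 groups of 4 libraries. They were the KO + ORY and WT + DMSO groups of each gene described and of library measures such as total counts. In 9 groups, all of genes, a library's gap to the nearest other library took up most of the range of the group. Chance gives about 1 group in 20. In KO + ORY these were Calr at 249 CPM and Enkur at 25.2 CPM in library 3, both the highest, and Ifit1 at 123 CPM, the lowest, and Psmb9 at 13.0 CPM, the highest, in library 4. In WT + DMSO they were Bcat1 at 3.08 CPM, the lowest, Fh1 at 106 CPM and Hes1 at 4.32 CPM, both the highest, in library 1, and Acot1 at 33.2 CPM and Psap at 415 CPM, both the highest, in library 4. None of these libraries reached the other group for its gene.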

How the results depend on the processing

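Of 1874 genes called, none changed direction while called under any of the alternatives tried. Other scalings, filters, tools and fits without GC and length trends gave 1838 to 2503 genes, with DESeq2 at 2043 and limma-voom at 2070. Libraries 1 and 2, and 3 and 4, summed gave 1040 genes (597 higher, 443 lower), and a required change of more than 1.2-fold gave 405 (247 higher, 158 lower). The replicate number as a block gave 2840 genes (1373 lower), and a block of libraries 1 and 2 against 3 and 4, added after seeing the data, gave 2597. Same-numbered libraries did not all correlate (0.0553 to 0.134), and KO + ORY library 2 correlated best with WT + DMSO library 1 (0.139), so the numbers may not be pairs. Leaving out each library in turn gave 1404 to 1765 genes, 778 to 931 higher and 626 to 834 lower. The cause of these movements was not tested, beyond that the sums leave 2 libraries per group. The higher share of called genes was 52.8% by TMM scaling and 47.3% by library size only. KO + ORY against WT + ORY moved most. There, 0 genes passed when a change of more than 1.2-fold was required, although 15 of its 138 called genes had estimates of 2-fold or more. At an unadjusted p under 0.05 in edgeR's test of any change 1723 genes passed. The count was 279 without a filter, 304 by DESeq2, 413 with GC and length trends removed and 573 with the added block. Of 97 called genes described, none reversed, a required change of more than 1.2-fold lost 24, summed libraries lost 11 and leaving out a library lost 3 to 9. Genes under about 5 CPM, such as Setd1a and Kif11, are limited by depth.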
